A study of Homo sapiens with 5 samples.

Results

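The genes of the cytosolic ribosome were examined in HEK293 cells, an established line derived from human embryonic kidney, with and without the T-to-C change of rs11607019, which the series places in SIRT3. A gene was taken as a member if it was protein coding and its symbol began with RPL or RPS followed by a number, together with RPSA, RPLP0, RPLP1, RPLP2 and FAU. Pseudogenes, readthrough and antisense genes, the RPS6K kinases, RPS19BP1 and RPS27L were left out. Of the 16677 genes in the deposited count table, 414 had such a symbol and 82 were members, 50 of the large and 32 of the small subunit. The other 332 were 317 genes that are not annotated as protein coding, 1 gene named as a pseudogene (RPS27AP5) but annotated as protein coding, 9 kinases, 3 with hyphenated names and the 2 relatives named above. Of the members, 78 encode proteins of the standard ribosome and 4 are paralogues, RPL7L1, RPL22L1, RPL26L1 and RPL36AL. The symbol rule does not reach RACK1, whose product also sits on the ribosome, and it is given separately.

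The study held 5 libraries from HEK293 cells under basal culture conditions, 2 called Control with the genotype WT and 3 with the genotype rs11607019. SIRT3 encodes a deacetylase of mitochondria. The labels do not say whether the variant is on 1 or all copies of SIRT3, how many edited clones were used, or whether libraries of a group came from separate cultures. P-values therefore measure only the spread between these libraries, which may be technical.

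Library totals ran from 17122569 to 17596084 counts, and 16310 genes (97.8%) had enough counts to be tested, all 82 members among them. Member counts ran from 100 to 49744 per library. Levels are given as CPM, the count scaled to the size of its library. SIRT3 had 28.9 and 29.3 CPM in the Control libraries and 26.5, 15.8 and 30.2 CPM in rs11607019 libraries 1, 2 and 3. Of 9 genes listed as HEK293 markers, 6 were in the table, VIM, KRT8, KRT18 and PAX2 among them, and NEFL, NEFM and EYA1 were not listed there. Their summed level was 681 to 944 CPM in Control and 794 to 1152 CPM in rs11607019. Of the markers of other cells, 2 of 6 for fibroblasts were listed, with a sum of 30.7 to 48.2 CPM in Control and 30.6 to 47.6 CPM in rs11607019. None of 4 leukocyte and 2 hepatocyte markers was listed. No batch or date was given in the labels.

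Each ribosome has a small subunit, which reads the messenger RNA, and a large subunit, which joins amino acids. Both are built in the nucleolus from ribosomal RNA and 1 copy of most ribosomal proteins, so cells need these proteins in matched amounts. Their messenger RNAs are among the most abundant in growing cells and most begin with a 5′ terminal oligopyrimidine (TOP) motif, a C followed by a run of C and T. Through this motif the kinase mTOR and the RNA-binding protein LARP1 set how much of the messenger RNA is stored or translated.

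The motif was looked for at the start of each gene, because it is the sequence feature these genes are known to share. RefSeq start sites (GRCh38.p14) were matched by symbol for 67 of the 82 members. A run of at least 5 C or T letters, beginning with C at the first transcribed base, was present at 1 or more start sites of 48 members (71.6%), against 1404 of 27305 genes in that table (5.14%). The run was present in 29 of 42 matched large subunit genes and in 19 of 25 small subunit genes. Within 10 bases before to 20 bases after the start, such a run was found in 61 members (91.0%) and in 43.4% of all genes. The windows below span the same 30 bases on the gene's own strand, with the run from the first transcribed base in capitals. They show 6 genes with lower values in the rs11607019 libraries, then RPS6 and RPS19, which had no such difference, and last RPS7, the member with the smallest p, whose listed start has no run of that length.
RPL39 (chrX:119791611-119791640, minus strand): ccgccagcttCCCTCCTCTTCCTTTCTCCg
RPS24 (chr10:78033853-78033882, plus strand): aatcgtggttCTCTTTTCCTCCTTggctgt
RPL31 (chr2:101002279-101002308, plus strand): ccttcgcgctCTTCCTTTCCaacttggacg
RPL24 (chr3:101686699-101686728, minus strand): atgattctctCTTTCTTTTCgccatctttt
RPL35A (chr3:197950180-197950209, plus strand): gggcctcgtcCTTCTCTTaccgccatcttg
RPL22L1 (chr3:170870176-170870205, minus strand): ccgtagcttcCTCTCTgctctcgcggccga
RPS6 (chr9:19380217-19380246, minus strand): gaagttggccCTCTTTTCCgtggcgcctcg
RPS19 (chr19:41860245-41860274, plus strand): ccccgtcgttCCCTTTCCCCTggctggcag
RPS7 (chr2:3575250-3575279, plus strand): cgccctcctcctcgcgctgtttccgcctct

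Among the members with the motif the run had a median length of 8 bases, and the longest, 19 bases, was that of RPL39. A match describes the letters in this window and does not show where transcription began in these cells.

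Levels were first compared between members. On the scale of CPM per kilobase of coding sequence, averaged over the 5 libraries, the members ran from 20.6 for RPS10 to 3948 for RPS19, with a median of 780. The median was 886 for the large and 711 for the small subunit genes. Of the 82 members, 70 lay within 4-fold of the median, 3 above that band and 9 below it.

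Among the highest levels were those of RPS19, at 3948 ± 341 CPM per kilobase (SD over the 5 libraries), RPS4X at 3313 ± 336, RPS16 at 3075 ± 160 and RPL37A at 2981 ± 692. RPS19 is the gene most often mutated in Diamond-Blackfan anaemia, an inherited failure of red cell production, and RPS4X is the X-linked copy of a small subunit gene. These 4 genes do not differ in order beyond that spread except for RPS19 against RPS16. The lowest levels were those of RPS10 at 20.6 ± 5.24, RPL22L1 at 35.6 ± 17.7, RPL17 at 39.0 ± 7.72, RPL36A at 45.7 ± 11.0 and RPL21 at 49.0 ± 16.7, and each of these overlaps RPL22L1 in spread.

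RPS10, RPL17 and RPL36A each share exons on the same strand with a readthrough gene (RPS10-NUDT3, RPL17-C18orf32 and RPL36A-HNRNPH2). Only these 3 readthrough genes were looked for. Some other members, RPS15A and RPL26 among them, also share exons with another gene, and whether that gene is a readthrough was not examined. RPL21 has 133 named pseudogenes, the most of any member. In all, 79 members have a named pseudogene, and the median number over all 82 members is 12.5. Annotated exon sequence is shared with a small nucleolar RNA by 24 members. A read that matches a member and such a copy or neighbour can be left out or assigned to either by the counting, so low values of these genes are uncertain. Across the 82 genes, the number of pseudogenes had a Spearman correlation of −0.25 with the level and −0.10 with the log2 fold change. These are descriptions across genes that share libraries.

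**Figure D1:**
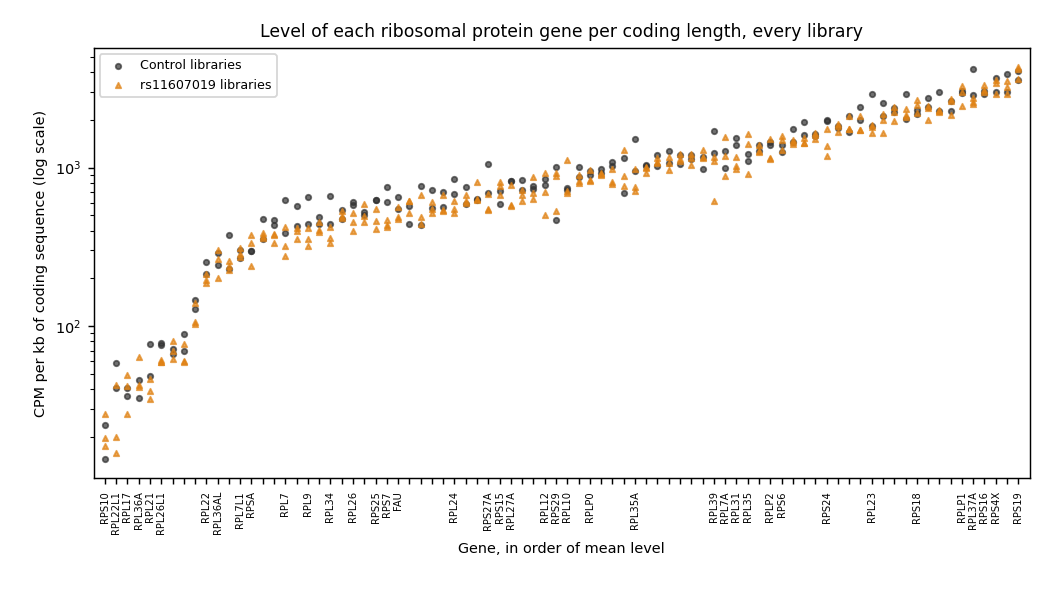
Level of each of the 82 genes in CPM per kilobase of coding sequence (log axis), with genes in order of their mean from RPS10 to RPS19, 2 Control libraries as circles and 3 rs11607019 libraries as triangles. Most genes form a gradual slope within 4-fold of the median of 780, with genes described in the text labelled, and the 5 libraries of a gene lie close together compared with the range between genes.

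The members were then compared between genotypes, the question the series poses for gene expression as a whole, with rs11607019 over Control as the direction of every log2 fold change. Most were lower with the variant, by a small amount: 60 of 82 (73.2%) had a log2 fold change below 0, against 49.5% of all genes tested, and the median was −0.14, against 0.003 for all genes. None passed the test. In edgeR's quasi-likelihood test with Benjamini-Hochberg adjustment over all genes, 0 of 82 members had an adjusted p under 0.05, as did 0% of all tested genes, and the lowest adjusted p of a member was 0.616. DESeq2 also called 0 members, with a lowest adjusted p of 0.106, for RPS7.

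At an unadjusted p under 0.05 in edgeR, 16 members (19.5%) were lower, against a background of 3.51% of all genes called lower, and 0 were higher, against 4.11%. The 16 had adjusted p-values from 0.616 to 0.646. DESeq2 also gave 16 and 0, with RPL26L1 in place of RPL23, and its share over all genes was not computed. In 20 members (24.4%) every rs11607019 library lay below both Control libraries, which held for 13% of all genes. In 0 members did every rs11607019 library lie above both, which held for 11.8% of all genes. Standard errors of the log2 fold changes ran from 0.12 to 0.39, with a median of 0.16. The 95% confidence interval stayed within a 2-fold change in either direction, that is within −1 and 1 on the log2 scale, for 75 of the 82 genes.

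**Figure D2:**
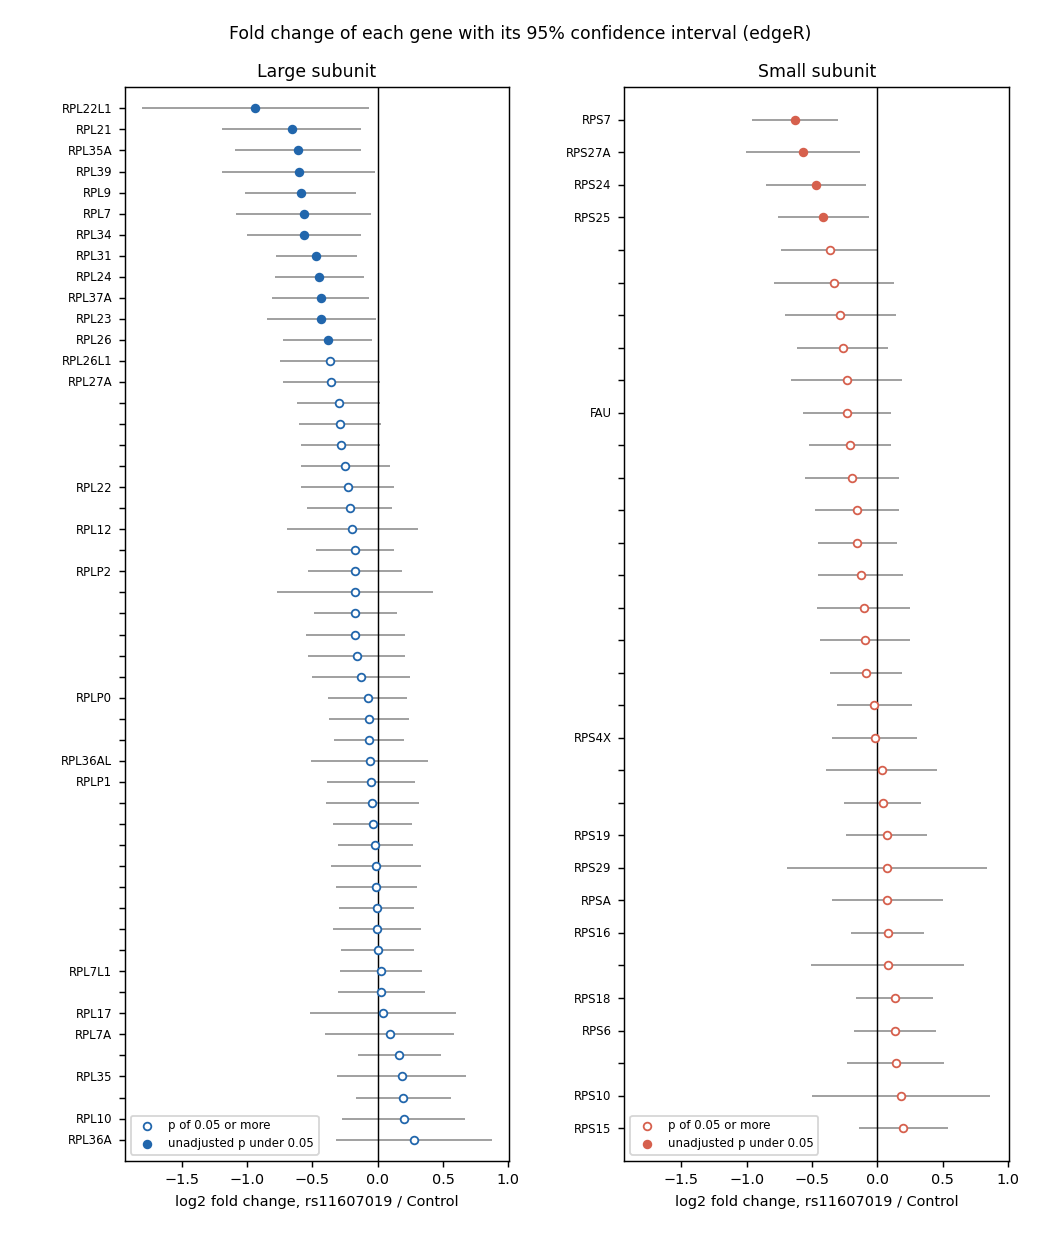
Log2 fold change (rs11607019 over Control) of each large subunit gene (left, 50) and small subunit gene (right, 32) with its 95% confidence interval from edgeR, filled where the unadjusted p is under 0.05, with genes described in the text labelled. The 16 filled points, 12 large and 4 small, all lie below 0, from −0.93 for RPL22L1 to −0.38 for RPL26, and none of the 82 passed adjustment.

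Of the small subunit, 4 of 32 genes were lower at an unadjusted p under 0.05: RPS7, RPS27A, RPS24 and RPS25. RPS7 (ENSG00000171863, chr2:3575205-3580920 in GENCODE 29 on GRCh38), a gene mutated in some patients with Diamond-Blackfan anaemia, had the smallest p of all members. It stood at 441 and 352 CPM in Control libraries 1 and 2 and at 253, 272 and 245 CPM in rs11607019 libraries 1, 2 and 3. All 3 variant libraries lay below both Controls, and the log2 fold change was −0.63 (SE 0.15, adjusted p = 0.616 in edgeR's quasi-likelihood test).

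RPS24 (ENSG00000138326), another Diamond-Blackfan gene, had 785 and 797 CPM in Control and 473, 544 and 699 CPM in rs11607019. The Controls nearly coincided and rs11607019 library 3 was the closest of the variant libraries to them, with a log2 fold change of −0.47 (SE 0.17). RPS25, which cells need for translation from certain viral entry sites, had 235 CPM in both Controls and 173, 153 and 205 CPM in rs11607019, a log2 fold change of −0.41 (SE 0.16). Both genes had groups that did not overlap and Controls that differed little. RPS27A, made as a fusion of ubiquitin with a ribosomal protein, had 496 and 324 CPM in Control and 256, 254 and 320 CPM in rs11607019. Its groups were separated by 324 against 320 CPM, and its log2 fold change was −0.57 (SE 0.19).

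Other small subunit genes with special products gave smaller values. FAU, whose protein is made as a fusion with a ubiquitin-like domain, had a log2 fold change of −0.23 (SE 0.15, adjusted p = 0.723). RPSA, also described as the laminin receptor precursor, had one of 0.08 (SE 0.19, adjusted p = 0.930). RPS6, the best known substrate of the S6 kinases, stood at 1035 and 942 CPM in Control and 1121, 1178 and 958 CPM in rs11607019, with overlapping groups and a log2 fold change of 0.14 (SE 0.14, adjusted p = 0.822). The largest positive value of the subunit was that of RPS15, 0.20 (SE 0.15, adjusted p = 0.751).

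Of the large subunit, 12 of 50 genes were lower at an unadjusted p under 0.05. RPL31 (ENSG00000071082, chr2:101001715-101024032), whose protein lies at the rim of the tunnel through which the new chain leaves, had the smallest p. It stood at 574 and 519 CPM in Control and 382, 435 and 366 CPM in rs11607019, with no overlap and a log2 fold change of −0.47 (SE 0.14, adjusted p = 0.616 in edgeR's quasi-likelihood test). RPL26, also near the tunnel exit, had 264 and 252 CPM in Control and 172, 197 and 225 CPM in rs11607019, a log2 fold change of −0.38 (SE 0.15). RPL39, a very short protein that lines the tunnel, had 259 and 188 CPM in Control and 94.0, 168 and 179 CPM in rs11607019, a log2 fold change of −0.60 (SE 0.26). Its groups did not overlap, but rs11607019 library 1 was far below the other libraries.

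RPL24, which forms a bridge to the small subunit, had 399 and 319 CPM in Control and 245, 258 and 289 CPM in rs11607019, a log2 fold change of −0.45 (SE 0.15). RPL9, at the base of the stalk, had 375 and 253 CPM in Control and 185, 203 and 238 CPM in rs11607019, a log2 fold change of −0.59 (SE 0.19). In both genes the groups did not overlap, and Control library 1 was the highest. RPL34, RPL37A and RPL21 shared that order. RPL34 had 231 and 154 CPM in Control and 117, 127 and 148 CPM in rs11607019 (log2 fold change −0.56, SE 0.19). RPL37A had 1158 and 794 CPM in Control and 696, 754 and 712 CPM in rs11607019 (log2 fold change −0.44, SE 0.17). RPL21 had 37.0 and 23.3 CPM in Control and 16.6, 18.6 and 22.1 CPM in rs11607019 (log2 fold change −0.66, SE 0.24).

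In the other 4 of these 12 genes the groups overlapped; the fourth, RPL22L1, is described with the paralogues. RPL35A, mutated in some Diamond-Blackfan patients, had 502 and 312 CPM in Control and 233, 248 and 321 CPM in rs11607019, a log2 fold change of −0.61 (SE 0.22). RPL7 had 462 and 286 CPM in Control and 205, 239 and 313 CPM in rs11607019, a log2 fold change of −0.57 (SE 0.23). RPL23, which binds the p53 regulator MDM2 when free of ribosomes, had 1231 and 773 CPM in Control and 692, 759 and 779 CPM in rs11607019, a log2 fold change of −0.43 (SE 0.19). In all 3, Control library 1 stood apart and Control library 2 lay below rs11607019 library 3.

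The paralogues were set beside the genes they resemble. RPL22L1 (ENSG00000163584), a duplicate of RPL22, had the largest negative value of all members and the largest standard error. It stood at 15.0 and 21.5 CPM in Control and 5.78, 7.29 and 15.5 CPM in rs11607019, with a log2 fold change of −0.93 (SE 0.39, adjusted p = 0.631 in edgeR's quasi-likelihood test). Libraries 1 and 2 of the variant were below the rest and library 3 lay between the Controls. RPL22 itself had 96.8 and 81.8 CPM in Control and 72.2, 74.5 and 81.9 CPM in rs11607019, a log2 fold change of −0.23 (SE 0.16, adjusted p = 0.735). The count of RPL22L1 divided by that of RPL22 was 0.155 and 0.263 in Control and 0.0800, 0.0979 and 0.190 in rs11607019, so this ratio overlapped between groups. RPL26L1 had a log2 fold change of −0.37 (SE 0.17, adjusted p = 0.657), close to that of RPL26, and its count was 12.9% and 13.2% of the RPL26 count in Control and between 11.9% and 15.1% in rs11607019. RPL7L1 had a log2 fold change of 0.03 (SE 0.14, adjusted p = 0.974), beside −0.57 for RPL7. RPL36AL had one of −0.06 (SE 0.20, adjusted p = 0.952) and RPL36A one of 0.28 (SE 0.26, adjusted p = 0.808).

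The stalk proteins RPLP0, RPLP1 and RPLP2, which recruit elongation factors, had log2 fold changes of −0.08, −0.05 and −0.17, each with an adjusted p of at least 0.802 in edgeR's test. Among the largest positive values were those of RPL36A (0.28), RPS15 (0.20), RPL10 (0.20) and RPL35 (0.18), none with an unadjusted p under 0.05. RPL10, which joins the large subunit late in assembly, was highest in rs11607019 library 2 at 717 CPM, against 461 and 477 CPM in Control and 454 and 444 CPM in the other variant libraries. Without that library its log2 fold change was −0.06 and that of RPL36A was 0.04. Without rs11607019 library 3 that of RPL35 was 0.00227. The X-linked members did not share a direction: RPL39 −0.60, RPS4X −0.02, RPL10 0.20 and RPL36A 0.28.

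**Figure D3:**
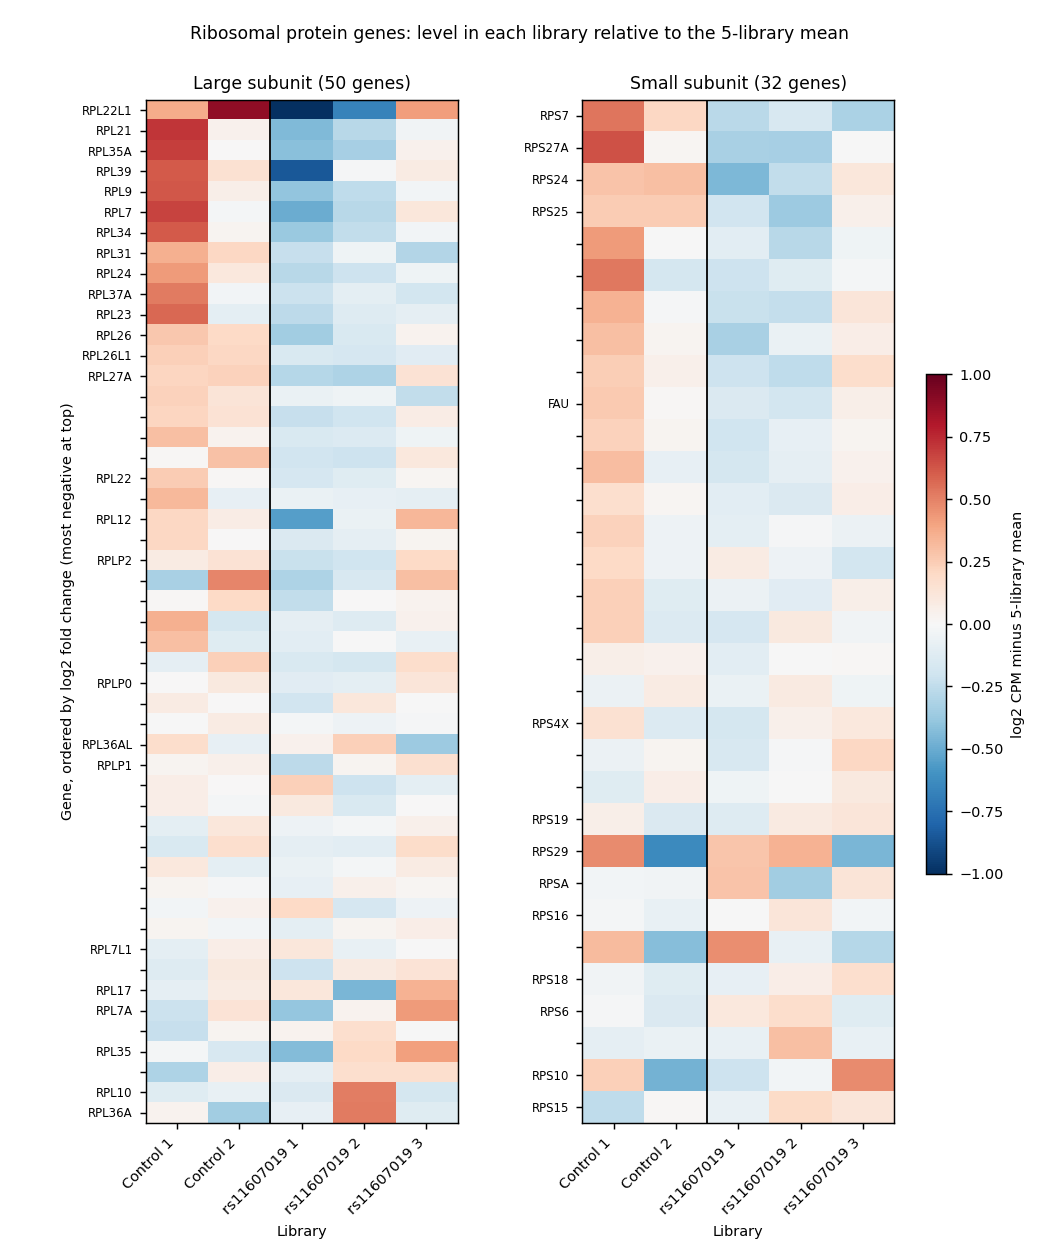
Level of each gene in each library as the difference of log2 CPM from its mean over the 5 libraries (red higher, blue lower), large subunit genes left and small subunit genes right, ordered by log2 fold change with the vertical line between genotypes and genes described in the text labelled. The upper rows are reddest in Control library 1 and bluest in rs11607019 library 1, while Control library 2 and rs11607019 library 3 are pale in most rows.

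Libraries of the same genotype differed from each other. Control library 1 was the highest of the 5 for 40 of the 82 members and rs11607019 library 1 the lowest for 37. The median difference from the 5-library mean of log2 CPM was 0.20 and 0.02 in Control libraries 1 and 2 and −0.15, −0.08 and 0.04 in rs11607019 libraries 1, 2 and 3. By this measure rs11607019 library 3 lay between the Controls. The members took 4.88% and 4.52% of all counts in Control and 3.99%, 4.42% and 4.64% in rs11607019, and these shares overlap between groups. For 54 of the 82 members the log2 difference between the Control libraries was larger in size than the log2 fold change between genotypes (65.9%, against 59.1% of all tested genes), and Control library 1 was above Control library 2 for 56.

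Among the 16 members with an unadjusted p under 0.05, Control library 1 was the highest in 14. Without that library 1 Control is left, so that fit is described by its log2 fold changes only. The members' median was −0.07, with −0.46 for RPS7 and −1.17 for RPL22L1. In the same fit the values of RPL31, RPS24 and RPS25 were −0.39, −0.48 and −0.41, and those of the genes with a high Control library 1 shrank, RPL23 from −0.43 to −0.06 and RPL7 from −0.57 to −0.18. All 16 genes had a negative log2 fold change in each of the 5 fits that leave out 1 library. They were selected in the full fit, and these fits reuse its libraries, so the kept sign is not independent evidence. Of all members 38 had a log2 fold change below 0 and 9 above 0 in all 5 fits. The same shares over all tested genes were not computed. At an unadjusted p under 0.05, 7 members were lower without rs11607019 library 1, against 2.82% of all genes. Without rs11607019 library 2 it was 8 members, against 2.12% of all genes.

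The large and small subunit genes were set side by side. The median log2 fold change was −0.17 for the large and −0.10 for the small subunit, and 40 of 50 and 20 of 32 were below 0. The difference between these medians, −0.07, became 0.14 without Control library 2. In counts, the large subunit took 2.85% and 2.75% of the library in Control and 2.31%, 2.56% and 2.76% in rs11607019. The small subunit took 2.02% and 1.78% in Control and 1.68%, 1.87% and 1.88% in rs11607019. The ratio of large to small subunit counts was 1.41 and 1.55 in Control and 1.38, 1.37 and 1.46 in rs11607019. These ratios overlap between genotypes, and that of Control library 1 lay within the range of the variant libraries.

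**Figure D4:**
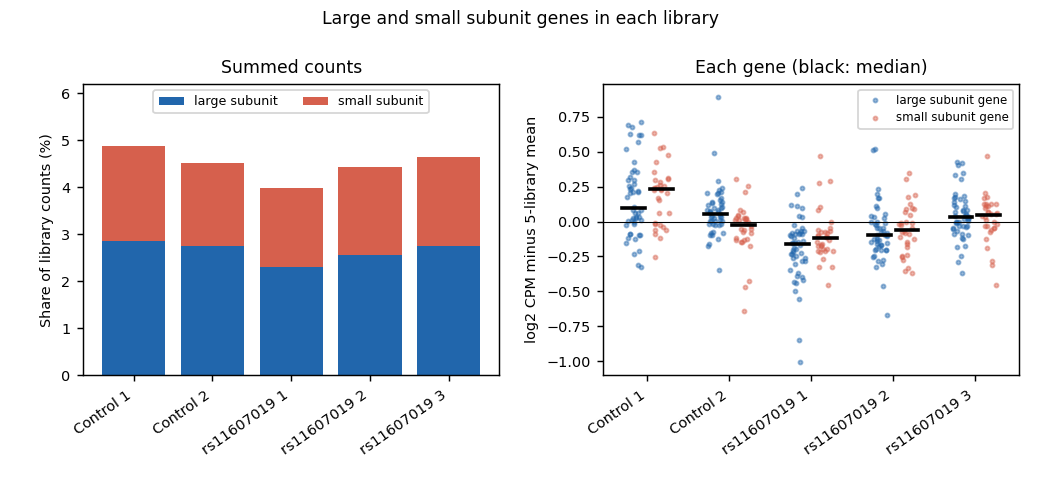
Left, share of each library's counts in large and small subunit genes (stacked bars, percent). Right, difference of log2 CPM from the 5-library mean for each gene, with the median as a black bar. Shares run from 3.99% to 4.88%, and medians are highest in Control library 1 for both subunits (0.09 and 0.23) and lowest in rs11607019 library 1 (−0.16 and −0.12).

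GC content differed between the members with low values and the rest. Over the 82 genes the Spearman correlation of transcript GC content with the log2 fold change was 0.42, and over 16199 tested genes it was 0.34, in both cases across genes that share libraries. Of the 41 members below the median GC content of 49.0%, 36 were lower, and 14 of the 16 low p-values were among them. Their log2 fold changes had a median of −0.28. Of the 41 at or above it, 24 were lower, with a median of −0.02. The 16 genes had a median GC content of 44.8% and the other 66 one of 51.3%. By library, the correlation of GC content with the difference from the 5-library mean was −0.49 and 0.07 in Control libraries 1 and 2 and 0.12, 0.34 and 0.30 in rs11607019 libraries 1, 2 and 3. Over all genes it was −0.43 and 0.04, and −0.11, 0.24 and 0.37, so the most negative correlation was in Control library 1 for members and for all genes.

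In a fit with offsets for GC content and transcript length in each library, the members' median was −0.05, with −0.06 for the large and 0.00 for the small subunit. In that fit 6 members were lower at an unadjusted p under 0.05, against a background of 2.46%, and 2 were higher, against 3.8%. The 6 were RPS7 (log2 fold change −0.48), RPL31 (−0.40), RPL21 (−0.50), RPL37A (−0.40), RPS25 (−0.32) and RPL27A (−0.41). The 2 were RPS6 (0.33) and RPS18 (0.25). Of the original 16 genes, 5 kept an unadjusted p under 0.05 and 11 did not, and no member passed adjustment, with an adjusted p of 0.768 for each of these 8 in edgeR's quasi-likelihood test.

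**Figure D5:**
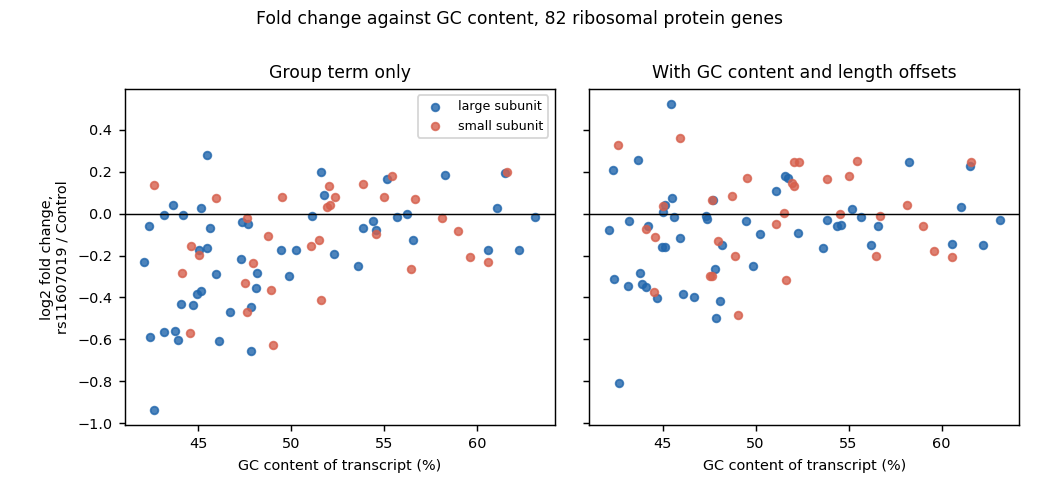
Log2 fold change (rs11607019 over Control) against the GC content of the transcript in percent for the 82 genes, without (left) and with (right) offsets for GC content and transcript length, large and small subunit genes in separate colours. On the left the genes with low GC content lie lowest (Spearman correlation 0.42), and on the right the slope is weaker (0.23) and the points centre near −0.05.

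The TOP motif described above was set against the same values. The 48 genes with the run were 71.6% of the 67 matched members. Their log2 fold changes had a median of −0.17, and they held 12 of the 16 low p-values. The 19 matched genes without it had a median of −0.04 and held 2. RPS7 and RPL9 are among the latter, and the remaining 2 genes were not matched. Whether low p-values were more frequent with the run than without it was not tested, nor was the part of GC content.

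Members on chromosomes 9 and 14 were looked at apart, because the median log2 fold change of all tested genes was 0.35 on chromosome 9 (662 genes) and 0.31 on chromosome 14 (541 genes). These medians were not shared by all variant libraries. The median difference from the 5-library mean on chromosome 9 was −0.19 in both Controls and −0.07, 0.29 and 0.18 in rs11607019, and on chromosome 14 it was −0.16 and −0.17 in Control and 0.28, 0.28 and −0.22 in rs11607019. On chromosome 9 the 4 members had log2 fold changes of −0.19 (RPL12), 0.09 (RPL7A), 0.14 (RPS6) and 0.18 (RPL35). The sign of RPL12 (to 0.00502 without rs11607019 library 1) and RPL7A (to −0.07 without Control library 1 and −0.13 without rs11607019 library 3) turned when 1 library was left out. On chromosome 14 those of RPS29 and RPL36AL were 0.08 and −0.06, and both signs also turned in such fits. RPS29 had 170 and 78.8 CPM in Control and 148, 156 and 89.3 CPM in rs11607019, so its Control libraries were farther apart than its group means. For the 76 members elsewhere the median was −0.16, and 58 were lower.

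Genes that work with these proteins were taken from lists and given by their counts. Of the 28 tested genes for translation elongation and other TOP-type messenger RNAs, 21 had a log2 fold change below 0 and the median was −0.12. In that list 4 (14.3%, against 3.51% of all genes) were lower at an unadjusted p under 0.05, SNHG8, EIF3E, NACA and NPM1, and 1 was higher, EEF1D. NACA, a subunit of the complex that meets new chains at the ribosome, had 741 and 621 CPM in Control and 473, 490 and 572 CPM in rs11607019, with no overlap and a log2 fold change of −0.41 (SE 0.15). EEF1D, which reloads the elongation factor with GTP, had 124 and 116 CPM in Control and 178, 151 and 161 CPM in rs11607019, with no overlap and a log2 fold change of 0.44 (SE 0.15). EIF3E, an initiation factor subunit, had a log2 fold change of −0.53 (SE 0.18), and SNHG8, a small nucleolar RNA host, one of −0.64 (SE 0.23). RACK1, which lies outside the symbol rule, had a log2 fold change of −0.02 (SE 0.15, adjusted p = 0.978).

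Of 64 tested factors for ribosomal RNA synthesis and processing, 42 were below 0, the median was −0.10, and 4 (6.25%) were lower and 0 higher at an unadjusted p under 0.05, a share near the 3.51% of all genes. SBDS, which frees the new large subunit for use, had 91.7 and 96.9 CPM in Control and 62.2, 58.8 and 76.1 CPM in rs11607019, with no overlap and a log2 fold change of −0.52 (SE 0.17). The others were GAR1 (−0.42), DIMT1 (−0.41) and the nucleolar chaperone NPM1 (−0.32), which is also in the list above. Of 25 regulators of ribosomal protein genes, 13 were below 0 with a median of −0.04, and LARP1B, a relative of LARP1, was the 1 gene lower at that level (−0.49, SE 0.18), or 4% of the list. Of 20 chaperones and quality control factors, 10 were below 0, and 0 were lower or higher at that level. Every gene named in these lists had an adjusted p of at least 0.616 in edgeR's quasi-likelihood test. With offsets for GC content and transcript length, the elongation and TOP-type list held 2 lower genes at that level, SNHG8 and NACA, and 0 higher. The ribosomal RNA list held 1 lower and 2 higher, against 2.46% and 3.8% of all genes. EIF3E, NPM1, EEF1D, SBDS, GAR1, DIMT1 and LARP1B did not keep an unadjusted p under 0.05 in that fit.

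Proteins of the mitochondrial ribosome are encoded by other nuclear genes, named MRPL and MRPS. Of the 77 tested, 60 had a log2 fold change below 0, the median was −0.16, and 12 (15.6%) were lower and 0 higher at an unadjusted p under 0.05, against 3.51% and 4.11% of all genes. In 29 (37.7%) every rs11607019 library lay below both Controls, against 13% of all genes, and in 6 every one lay above, against 11.8%. Their median difference from the 5-library mean was 0.08 and 0.09 in Control and −0.12, −0.09 and 0.02 in rs11607019. For the cytosolic members the Control values were 0.20 and 0.02, with 0.09 and 0.05 for the large and 0.23 and −0.02 for the small subunit. With offsets for GC content and transcript length, 4 of the 77 mitochondrial genes were lower and 0 higher at an unadjusted p under 0.05. Over all genes these shares were 2.46% and 3.8%, and the median of the 77 was −0.10. The difference between the mitochondrial and cytosolic genes was not tested.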

How the data were processed

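TRIzol was used to extract RNA, which was sequenced, per the labels, as a strand-specific mRNA library with single-end reads of 50 bases on a DNBSEQ platform. The authors deposited whole-number read counts per gene, with no normalization. The submitters' processing notes name HISAT2, SAMtools, HTSeq and hg38, with no versions. The gene annotation, the strand setting and the treatment of reads with several matches are not given in the sources used here. No count in the table was under 3, so a gene silent in a group is not listed.

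Ensembl identifiers were named from a table of gene symbols (16627) or GENCODE 29 (46), and 4 stayed unnamed. The members and gene lists were chosen with earlier results of these data known. Genes named in the text were chosen by rule: members with an unadjusted p under 0.05, the 5 largest values in each direction, the 5 highest and 5 lowest levels, paralogues, RPSA, FAU, stalk genes, RPS27A, members on chromosomes 9, 14 and X, and in related lists RACK1 and genes with an unadjusted p under 0.05. RPS18 and RPL27A were named after their values were seen. Some genes that the rule selects are not reported here.

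Counts were scaled by TMM (factors 0.983 to 1.01), filtered with filterByExpr and tested over all genes with edgeR 4.0.16 (quasi-likelihood F test, robust, two-sided, Benjamini-Hochberg, threshold 0.05) in R 4.3.3. The biological coefficient of variation was 19.8%. On simulated data of 16310 genes with 200 changed, 67% of 2-fold and 100% of 4-fold changes were recovered at the adjusted threshold. Each gene was simulated on its own, with no deviation shared by the genes of a library, and no change under 2-fold was included. The rates do not apply to smaller changes, such as those estimated for the members. Levels per kilobase use the coding length of the principal transcript in GENCODE 29, and GC content and length are those of that transcript. Alternatives were other scalings and filters, DESeq2 1.42.0, limma-voom (limma 3.58.1), the replicate number as a block, offsets for GC content and length, and leaving out each library.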

Additional observations from a re-analysis of the deposited data

How the results depend on the processing

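Of 122 values recomputed for the main comparisons, 111 moved by less than the spread between libraries or, for counts, by less than 1.5-fold. The number of members past adjustment, 0 in every fit, is among these values. For the members' and small subunit medians, that spread is close in size to the medians. The small subunit median went from −0.10 to 0.0005 with offsets for GC content and length and still counted as unmoved. The 111 therefore do not show that these medians are stable. Among named members with an unadjusted p of 0.05 or more, 30 of 336 values changed sign. No alternative called a member after adjustment, and the lowest adjusted p of a named member was 0.106, for RPS7 in DESeq2. With offsets for GC content and transcript length, the number of members lower at an unadjusted p under 0.05 went from 16 to 6, the number higher from 0 to 2, and the large subunit median from −0.171 to −0.0602. The number lower was below 16 without rs11607019 library 1 or 2. It was 21 without rs11607019 library 3, against 4.41% of all genes in the same fit. The number higher was at most 1 in these fits (without rs11607019 library 1). Fits without a Control library leave 1 Control, and their numbers are not given. Leaving out each of the 5 libraries in turn, the members' median ran from −0.23 to −0.07. The large subunit median ran from −0.22 to −0.11 and the small subunit median from −0.26 to −0.00262. Large minus small ran from −0.12 to 0.14. The number of members whose groups did not overlap, 20 with all libraries, ran from 23 to 43 with fewer libraries to separate. That was 28.0% to 52.4% of the members, against 17.8% to 29.7% of all tested genes in the same comparisons and 13.0% with all libraries.

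Replicate numbers 1 and 2 occur in both groups. The labels do not say that a number marks a shared culture or day. Deviations of same-numbered libraries correlated at 0.11 and −0.10, but with 2 Controls the deviations of one mirror those of the other, so these values cannot tell whether the numbers pair the libraries. With the replicate block 17 members were lower and 0 higher at an unadjusted p under 0.05, 14 of the 16 among them. In that fit 65 were below 0 and the median was −0.16. Because rs11607019 library 3 has no Control of its number, the block takes it up entirely. The block fit therefore compares the genotypes only through the libraries numbered 1 and 2. The share of all genes called lower was not computed for it.

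The lowest count of a member in a library was 100. With 2 against 3 libraries, the standard errors of 0.12 to 0.39 limit which differences can be called. How far reads shared with pseudogenes or readthrough genes enter the values was not tested.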

Other observations

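The table also lists ribosomal protein pseudogenes, 320 of which were tested. They took 0.235% to 0.324% of counts. Of these rows 238 had a log2 fold change below 0, with a median of −0.29, and 35 (10.9%, against 3.51% of all genes) were lower and 0 higher at an unadjusted p under 0.05. Their median difference from the 5-library mean was 0.43 and −0.04 in Control libraries 1 and 2 and −0.24, −0.18 and 0.06 in rs11607019 libraries 1, 2 and 3, which puts the libraries in the same order as the members do. With offsets for GC content and transcript length, 10 of the 320 rows were lower and 4 higher at an unadjusted p under 0.05. Over all genes these shares were 2.46% and 3.8%, and the median of the rows was −0.15. A pseudogene and its parent can share reads, so these rows are not independent of the members. Of 11 relatives left out of the members by name, 6 were below 0. One of them, RPS27L, a p53-induced relative of RPS27, had 106 and 60.0 CPM in Control and 56.3, 59.4 and 59.5 CPM in rs11607019, a log2 fold change of −0.51 (SE 0.23), with Control library 1 apart from the other 4 libraries.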
